A study of Mus musculus with 6 samples.

Results

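The cells described are the cycling leukocytes of a mouse brain tumor, that is, cells with at least 3 UMIs (unique molecular identifiers, each standing for 1 captured RNA molecule) of Mki67 and Top2a together. They were taken from the 2 single-cell RNA libraries of CD45+ cells of SB28 tumors, among cells with at least 200 detected genes, at most 10% mitochondrial UMIs and under 0.5% of UMIs from the neutrophil genes S100a8 and S100a9 ("low-S100 cells"). This gave 1222 members among 16459 low-S100 cells, 513 in CD45+ tumor library 1 and 709 in CD45+ tumor library 2. SB28 is a mouse glioma cell line, and the labels give 10000 injected tumor cells and day 18 as the time of collection. The other 4 libraries of the series are neutrophils sorted from tumors (sorted tumor 1 and 2) and from blood (sorted blood 1 and 2) of SB28 mice. All 6 libraries come from tumor-bearing animals, no treatment or genotype is given, and the sorting protocol in the labels covers the neutrophils and not the CD45+ cells. The labels number the samples of a group but do not say that these were separate animals. Every p-value compares sets of cells within a library. It reflects only how much their difference varies between the libraries of a group, which may therefore be technical.

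Mki67 (chr7:135689784-135716361, minus strand, GRCm38) encodes the protein Ki-67 that coats mitotic chromosomes, and Top2a (chr11:98992943-99024189, minus strand) encodes the topoisomerase that untangles sister DNA molecules. Both are transcribed mainly from S phase to mitosis and are off in resting cells. A dividing cell first switches on the E2F targets that copy DNA and later the genes of the spindle and of chromosome condensation, many of which are held off in resting cells by complexes that bind a promoter element called the cell cycle genes homology region (CHR). In brain tumors, macrophages come from blood monocytes and from resident microglia, and microglia are known to renew themselves by local division.

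The libraries held 8851 to 9418 cell barcodes in the CD45+ tumor group, 4158 to 6612 in the sorted tumor group and 3121 to 5330 in the sorted blood group, with total counts of 13945799 to 129422458 UMIs per library. Replicates of a group were different libraries, since their summed counts differed well beyond what sampling allows (11.3 to 157 for chi-square divided by its degrees of freedom). Some barcodes occurred in more than 1 library. CD45+ tumor 1 and sorted tumor 2 shared 162 barcodes, with a median of 740 UMIs in CD45+ tumor 1 and 27892.5 in sorted tumor 2. The expression profiles of a shared barcode resembled each other more (median r of 0.53) than those of different barcodes of these libraries (median r of 0.41). Every other pair shared 3 to 35 barcodes. Of the members, 6 in CD45+ tumor 1 and 10 in CD45+ tumor 2 had such a barcode, and of the 25 cells that met the rule in sorted tumor 2, 18 did.

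Members were chosen by their UMIs of Mki67 and Top2a and of S100a8 and S100a9, and these values are given as a description. Members made up 5.92% of low-S100 cells in library 1 (95% exact binomial interval 5.44 to 6.44%) and 9.09% in library 2 (8.46 to 9.75%). These intervals cover counting error only. The summed count of Mki67 and Top2a had a median of 10 UMIs in library 1 and 7 in library 2, with maxima of 75 and 124. Many members lay far beyond the threshold, since 508 (41.6%) had 12 or more UMIs, 320 had 5 to 11 and 394 had 3 or 4. Just inside the threshold were 88 cells of library 1 and 158 of library 2 with exactly 3 UMIs, and just outside it 236 and 278 cells with 2 UMIs. Both genes were detected in 388 members of library 1 and 483 of library 2, while 25 and 42 members had no Mki67 UMI and 100 and 184 had no Top2a UMI. Near the S100 threshold, 3 and 2 members had 0.4 to 0.5% of UMIs from S100a8 and S100a9, and 3 and 4 cells that met the UMI rule had 0.5 to 0.6% and were left out.

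**Figure D1:**
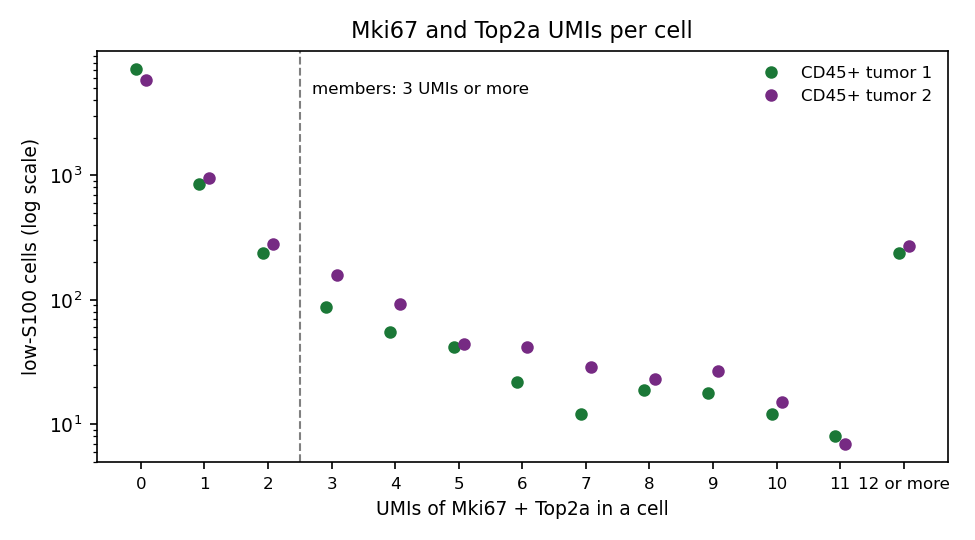
Number of low-S100 cells (log scale) by their UMIs of Mki67 and Top2a together, for both CD45+ tumor libraries; the last position pools all cells with 12 or more UMIs. Counts fall steeply up to the threshold of 3 UMIs, and the pooled tail holds 237 cells of library 1 and 271 of library 2.

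Members were deeply sequenced cells. Their median was 20753 UMIs and 4858 genes in library 1 and 29164 UMIs and 5446 genes in library 2, against 6194 UMIs and 2304 genes in library 1 and 10809 UMIs and 3152 genes in library 2 for the 12920 cells with no UMI of either gene. Dividing cells hold more RNA, and a deeper cell also reaches 3 UMIs more easily, and these cannot be told apart here. Members were therefore compared with cells with 0 UMIs of both genes drawn within the library from the same bins of total UMIs ("matched cells"). The cycling and the matched set held 440 cells each in library 1 (median 19007 and 19102 UMIs) and 590 each in library 2 (median 26111.5 and 26121.5 UMIs). Some bins held fewer cells with 0 UMIs than members. There 73 and 119 members, picked at random within the bin, have no partner, and the median depth of the members kept is lower than that of all members. A matched cell may still be dividing, as 0 UMIs of these genes do not show that they were silent. Mitochondrial RNA took a median of 1.72% and 2.27% of UMIs in members, against 1.36% and 1.62% in the cells with 0 UMIs.

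The members carried leukocyte RNA. Ptprc, which encodes CD45, had at least 1 UMI in 98.2% and 97.6% of the cycling set, against 97.7% and 98.8% of the matched set, at full depth. With each cell thinned at random to 3000 UMIs, the shares were 72.1% and 68.7% of the cycling set and 78.7% and 69.8% of the matched set. Markers of other cells were low: the 12 tumour or neural markers summed to 67.7 and 55.1 CPM (UMIs per 1000000 UMIs) in the cycling set and 73.1 and 51.0 CPM in the matched set, and most of these were Mbp, with 529 of 567 and 772 of 867 UMIs in the cycling set and 584 of 611 and 753 of 799 UMIs in the matched set. In the cycling set the glial lineage factors Olig1 and Olig2 and the tumour matrix gene Bcan were at 0 in both libraries. Stromal markers reached 1.31 and 2.22 CPM in the cycling set against 2.27 and 1.66 CPM in the matched set, and erythroid markers 0.24 and 2.92 CPM against 0.12 and 0.45 CPM.

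Most members carried myeloid lineage genes. To compare shares at equal depth each cell was thinned to 3000 UMIs, which left 430 and 587 cycling cells and 423 and 580 matched cells. C1qa, a chain of complement C1q made by macrophages and microglia, was detected in 72.6% and 75.1% of cycling cells, against 74.5% and 70.3% of matched cells. Arg1, the arginase of tumor-associated macrophages, was detected in 75.8% and 76.7% of cycling cells and 84.9% and 82.2% of matched cells. The cycling values of Arg1 lay below the matched ones in both libraries, and those of C1qa did not. Free RNA in the droplets, or droplets with several cells, can give a background to any such share, and their parts were not tested. In B or plasma cell-like cells that were not members, which should make neither gene, C1qa was seen in 12.8% and 15.6% and Arg1 in 31.9% and 18.8% of 47 and 32 cells, at a median of 2097 and 3439 UMIs before thinning over all such cells. In T or NK cell-like cells that were not members, C1qa was seen in 44.0% and 33.0% and Arg1 in 41.8% and 30.9%. A cluster of that class also carried macrophage markers.

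The monocyte gene Ly6c2 was detected in 8.37% and 7.16% of cycling cells, against 13.7% and 11.6% of matched cells and 26.0% and 23.6% of phagocyte-like cells that were not members. Of B or plasma cell-like cells that were not members, 4 of 47 in library 1 (8.51%, exact interval 2.37 to 20.4%) and 0 of 32 in library 2 (0 to 10.9%) had a UMI of Ly6c2. The cycling value lay within this interval in both libraries. The B or plasma cell-like cells were few, and their median over all such cells before thinning was 2097 and 3439 UMIs. In the cycling set it was 19007 and 26111.5 UMIs, so the background of such shallow cells need not be that of cycling cells. T or NK cell-like cells that were not members carried Ly6c2 in 21.6% and 14.3%, above both cycling values. Whether this was background or RNA of these cells themselves was not tested. P2ry12, a purinergic receptor of microglia, was detected in 9.77% and 15.8% of cycling cells and 10.9% and 10.5% of matched cells. The order of the sets thus differed between the libraries for P2ry12. Non-members of the lymphoid classes, also shallower before thinning, give only a rough background. Among them P2ry12 was seen in 8.51% and 3.13% of the B or plasma cell-like class and 7.20% and 5.22% of the T or NK cell-like class. The library 1 values of both sets lay near this background. The receptor gene Flt3, which marks dendritic cells and their precursors, was seen in 1.86% and 2.73% of cycling cells and 4.02% and 2.41% of matched cells, against 1.71% and 1.53% in phagocyte-like cells that were not members.

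Lymphoid genes were rare. Cd3e, a subunit of the T cell receptor complex, was detected in 5.81% and 1.36% of cycling cells, against 2.60% and 1.38% of matched cells. Outside the members it was seen in 35.7% and 38.7% of cells of the T or NK cell-like class and in 0.10% and 0.07% of the phagocyte-like class. Cd79a, a subunit of the B cell receptor, was seen in 0.47% and 0.34% of cycling cells and in 0 of 423 and 0 of 580 matched cells, which allows a share of up to 0.71% and 0.52%. It was seen in 0.16% and 0.07% of phagocyte-like cells. In all, 92.8% and 96.4% of cycling cells had at least 1 UMI of C1qa, Arg1, Ly6c2 or P2ry12, against 95.3% and 95.5% of matched cells. Cd3e or Cd79a was found in 6.28% and 1.70% of cycling cells and 2.60% and 1.38% of matched cells, and 5.12% and 2.56% of cycling cells had none of the 7 genes, against 2.60% and 2.76%. With 2 libraries paired by origin, an exact permutation test of a share cannot go below p = 0.5, so shares are given without a test.

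**Figure D2:**
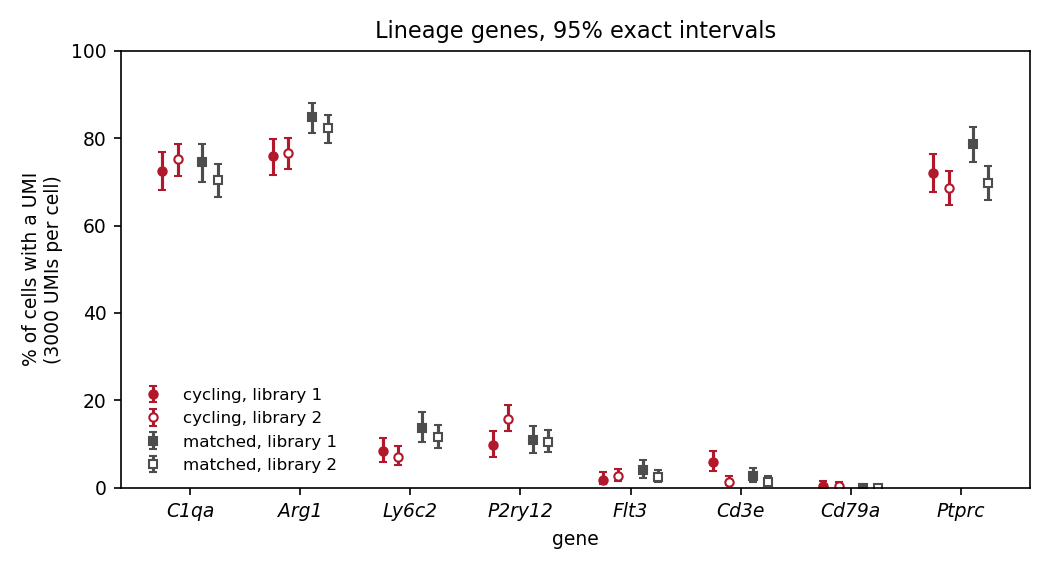
Percent of cells with at least 1 UMI of each lineage gene after thinning to 3000 UMIs per cell, for the cycling set (circles) and the matched set (squares) of library 1 (filled) and library 2 (open), with 95% exact binomial intervals for counting error. C1qa, Arg1 and Ptprc are found in most cells of both sets, and Arg1 and Ly6c2 are lower in the cycling set of both libraries.

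The members were spread over most cell types of the tumor. Cells were clustered with the genes of the cell cycle left out and named by marker genes, so that the names are rebuilt and end in "-like". The largest share of members, 39.0% in library 1 and 38.4% in library 2, lay in a pair of unnamed clusters led by Lepr (the leptin receptor), Csta2, Wfdc21, Chil3 and Prtn3, of which one held 1149 cells of library 1 and 23 of library 2 and the other 38 and 1073, and which were joined after the clusters were seen. After thinning, Arg1 was detected in 98% and 98.5% of the members in these clusters, C1qa in 66.5% and 68.0% and Chil3 in 69.5% and 63.2%. Lepr itself was detected in 7% and 16.2% of them and Csta2 in 24% and 22.1%. These clusters held 38.0% and 37.1% of the cycling set, against 25.5% and 23.1% of the matched set. Phagocyte-like cells (macrophage-, monocyte- and microglia-like) held 32.7% and 33.9% of the cycling set and 47.7% and 46.3% of the matched set. T or NK cell-like cells held 11.1% and 4.07% of the cycling set and 11.4% and 3.39% of the matched set, and dendritic cell-like cells 6.82% and 5.59% of the cycling set and 6.36% and 6.95% of the matched set. The Lepr and Csta2 clusters thus made up more and the phagocyte-like cells less of the cycling set than of the matched set in both libraries.

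The size of these shares depended on how finely the cells were clustered. Phagocyte-like cells held a mean of 34.0% of members at the clustering resolution used, 20.8% at a coarser one and 29.3% at a finer one. The clusters led by Lepr and Csta2 held a mean of 38.7% of members, and 56.7% at the coarser resolution. At the finer one, clusters with both genes among their leading genes still formed, with 150 and 1 members in one and 2 and 138 in another. They lost the class label because shared leading genes joined them to a cluster led by Alox15, Prtn3 and Lepr but not Csta2 (9 and 198 members). No share of the class was therefore computed there.

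At equal depth the classes also differed in how often they carried a UMI of Mki67 or Top2a. After thinning, 18.6% and 21.5% of cells in the Lepr and Csta2 clusters did so, against 7.09% and 8.21% of the phagocyte-like class. The T or NK cell-like class lay at 15.5% and 12.2% and the dendritic cell-like class at 7.93% and 5.59%. Of microglia-like cells 11.7% and 12.01% carried such a UMI, of macrophage-like cells 9.89% and 8.35%, and of monocyte-like cells 3% and 3.18%. These shares are a description of the genes that chose the members, with no test. Without thinning, 40 of 385 and 90 of 787 microglia-like cells, 123 of 1814 and 145 of 2278 macrophage-like cells and 10 of 1694 and 8 of 645 monocyte-like cells were members, with lower median depth in monocyte-like cells (5866 and 8153 UMIs) than in microglia-like cells (10814 and 13926 UMIs). Among macrophage-like clusters, one led by Vcam1, Mmp13 and Mrc1 held 30 members of 106 cells in library 1 and 94 of 527 in library 2, and had the highest median depth of them (16848 and 22587 UMIs). Of T cell-like cells 16.5% and 15.2% carried a UMI at equal depth, of NK cell-like cells 9.33% and 2.53%. One T cell-like cluster, whose cells also carried macrophage markers, held 38 and 20 members of the T or NK cell-like class, and after thinning C1qa was detected in 58.5% and 66.7% and Arg1 in 58.5% and 48.1% of the members of that class. B or plasma cell-like cells gave 2 members in each library and neutrophil-like cells 6 and 12.

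**Figure D3:**
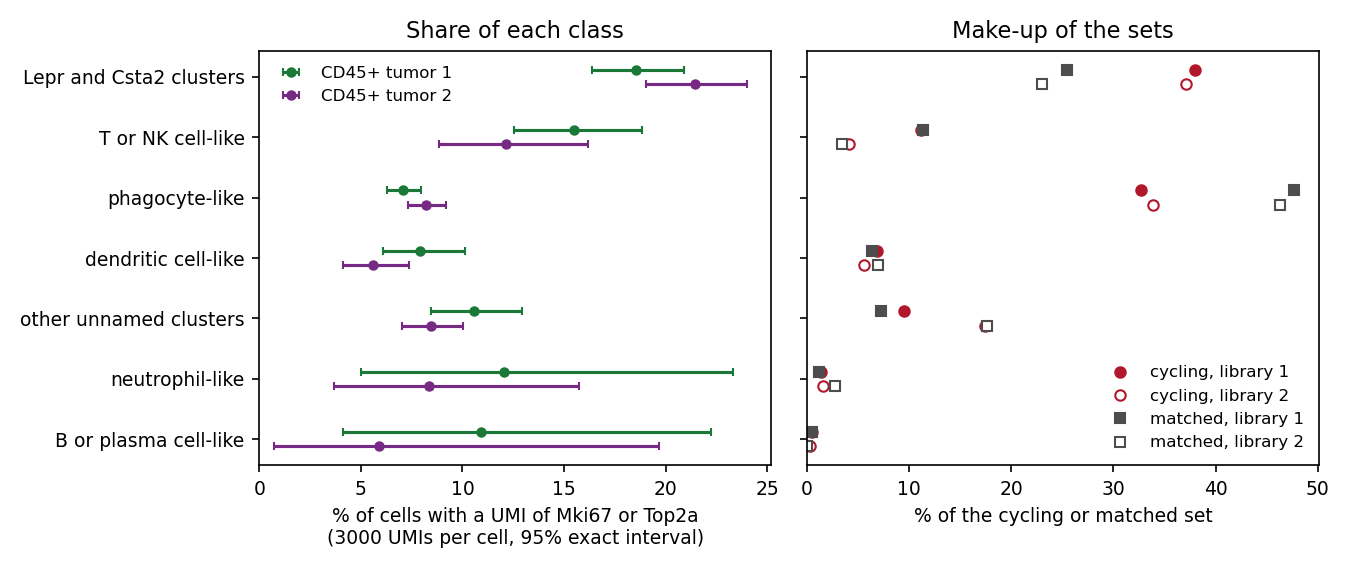
Left, percent of each class with a UMI of Mki67 or Top2a after thinning to 3000 UMIs per cell, by library, with 95% exact intervals. Right, percent of the cycling set (circles) and of the matched set (squares) that each class makes up, in library 1 (filled) and library 2 (open); the Lepr and Csta2 clusters are at 38.0% and 37.1% of the cycling set, against 25.5% and 23.1% of the matched set.

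The UMI counts of the cycling and the matched set were summed per library and compared with edgeR's quasi-likelihood test with the library as a block and Benjamini-Hochberg adjustment, at an adjusted p of 0.05. Of 13398 genes tested, 1690 (12.6%) were higher and 1714 (12.8%) lower in cycling cells, 25.4% in all, with a median log2 change of -0.01 over all genes. Without the library block 287 genes were higher and 8 lower, so nearly all calls of lower genes rest on the pairing of the sets within a library. DESeq2 with the same block called 676 higher and 522 lower. Leaving out barcodes found in another library gave 1798 higher and 1756 lower. Because Mki67 and Top2a chose the cells and belong to the cell cycle programme, the rise of the rest of that programme describes the choice and is not support for it. At 4 sums and 1 residual degree of freedom, single calls lean on the spread pooled over genes.

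The whole replication and division programme was higher in cycling cells. All 40 genes of a DNA replication list passed the test as higher (median log2 change 1.80), as did all 20 of nucleotide synthesis (0.85), 59 of 60 of mitosis (4.31) and all 25 replicative histones tested (2.69). Hmmr, a spindle-associated hyaluronan receptor, reached 68.5 and 65.2 CPM in cycling cells, against 0.72 and 0.27 CPM in matched cells (log2 change 7.22 ± 0.19, SE). Cenpf, a kinetochore protein, had 119 and 83.6 CPM in cycling cells and 1.08 and 1.64 CPM in matched cells (6.07 ± 0.15). Pclaf, a partner of the sliding clamp PCNA, had 283 and 223 CPM in cycling cells and 4.43 and 3.07 CPM in matched cells (6.10 ± 0.10). For these genes the lowest cycling value was many times the highest matched value.

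Rrm2, the subunit of ribonucleotide reductase made in S phase, had 45.0 and 54.8 CPM in cycling cells and 0.72 and 1.02 CPM in matched cells (5.80 ± 0.17). Hist1h1b, a linker histone, had 215 and 143 CPM in cycling cells and 6.47 and 4.77 CPM in matched cells (4.97 ± 0.10). Replicative histone messages mostly lack the poly(A) tail that this kind of library captures, so their level is a partial view. More abundant genes moved by smaller factors. Stmn1, which destabilises microtubules, had 624 and 448 CPM in cycling cells, against 51.5 and 52.3 CPM in matched cells, and the chromatin protein gene Hmgb2 had 845 and 843 CPM against 168 and 186 CPM. Of chromatin proteins 29 of 32 and of DNA repair and checkpoint genes 24 of 26 were higher, none lower. The exception in the mitosis list was Pttg1, which encodes securin, at 31.8 and 32.3 CPM in cycling cells and 33.5 and 33.8 CPM in matched cells (-0.07 ± 0.09).

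The 2 sides of the programme were also summed within each cell. The replication list had a median of 15.2 and 10.9 UMIs per 10000 in members, against 5.05 and 4.54 in matched cells, and the mitosis list 39.0 and 30.1 in members against 5.30 and 6.03 in matched cells. Both rose with the count that defined membership. Members with 3 or 4 UMIs of Mki67 and Top2a had a median mitosis sum of 10.97 and 8.91, those with 5 to 11 UMIs 28.7 and 25.4, and those with 12 or more 65.2 and 66.0. The first of these groups overlapped cells left out by the rule: cells with 2 UMIs had a median mitosis sum of 7.12 and 6.99 and cells with 1 UMI 5.93 and 6.39. The mitosis sum exceeded the replication sum in 70.8% and 68.1% of members and in 50.5% and 63.7% of matched cells. Among members, dendritic cell-like cells had the highest median replication sum in library 1 (25.5, against 11.3 in library 2), and phagocyte-like cells the lowest of the 5 classes compared (9.73 and 8.31) in both libraries.

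Because the mitosis genes moved together, their promoters were read. The promoters of the 4 genes of the mitosis list with the highest mean level in cycling cells among those that hold a CHR-type motif follow, each 300 bases, from 250 before to 50 after the start of the gene, 5′ to 3′ on the gene's strand, from RefSeq (GRCm38.p6). The capitals mark the motif (TTTGAA or TTCGAA, on either strand). Ube2s (chr7:4812291-4812590, minus strand) and Ube2c (chr2:164769679-164769978, plus strand) encode the ubiquitin-conjugating enzymes of the anaphase-promoting complex. Smc2 (chr4:52438971-52439270, plus strand) encodes a core subunit of condensin, and Ckap2l (chr2:129297163-129297462, minus strand) a spindle protein.
Ube2s: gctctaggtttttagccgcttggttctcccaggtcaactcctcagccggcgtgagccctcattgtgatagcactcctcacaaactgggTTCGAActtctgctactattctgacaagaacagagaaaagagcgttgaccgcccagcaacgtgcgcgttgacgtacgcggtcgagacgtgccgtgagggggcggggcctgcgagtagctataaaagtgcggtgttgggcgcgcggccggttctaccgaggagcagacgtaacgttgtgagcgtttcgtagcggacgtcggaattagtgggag
Ube2c: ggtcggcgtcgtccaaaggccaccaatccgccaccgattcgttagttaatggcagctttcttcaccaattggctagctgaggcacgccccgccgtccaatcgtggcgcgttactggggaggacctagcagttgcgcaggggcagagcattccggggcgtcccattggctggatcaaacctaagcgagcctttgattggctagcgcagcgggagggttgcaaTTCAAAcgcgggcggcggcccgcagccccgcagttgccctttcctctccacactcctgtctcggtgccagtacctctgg
Smc2: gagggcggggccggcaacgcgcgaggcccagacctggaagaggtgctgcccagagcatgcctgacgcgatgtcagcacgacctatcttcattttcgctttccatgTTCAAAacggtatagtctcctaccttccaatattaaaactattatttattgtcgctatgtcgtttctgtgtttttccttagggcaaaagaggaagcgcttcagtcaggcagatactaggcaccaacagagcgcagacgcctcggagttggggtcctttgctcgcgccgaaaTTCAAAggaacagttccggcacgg
Ckap2l: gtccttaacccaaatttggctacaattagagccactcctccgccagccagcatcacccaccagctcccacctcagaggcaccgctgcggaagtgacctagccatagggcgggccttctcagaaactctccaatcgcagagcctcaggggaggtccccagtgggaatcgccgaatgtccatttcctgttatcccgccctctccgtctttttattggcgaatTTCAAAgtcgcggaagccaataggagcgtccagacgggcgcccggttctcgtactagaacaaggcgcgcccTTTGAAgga
The motif began at position -162 in Ube2s, at -29 in Ube2c, at -145 and 26 in Smc2 and at -30 and 41 in Ckap2l, counted from the gene's start. Their levels were 185 and 227 CPM in cycling cells against 72.4 and 99.3 CPM in matched cells for Ube2s, and 124 and 148 CPM against 2.75 and 3.68 CPM for Ube2c. Smc2 had 140 and 126 CPM in cycling cells and 12.6 and 14.7 CPM in matched cells, and Ckap2l 106 and 140 CPM in cycling cells and 33.0 and 52.3 CPM in matched cells. Genes with this motif therefore differed widely in fold, and Ube2s and Ckap2l were well detected in matched cells too.

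Of the mitosis list, 51 of 60 genes had a promoter in the table, and 39 of these (76.5%) held the CHR-type motif, against 6 of 29 (20.7%) of the replication list, 14.8% of all genes tested and 19.4% of all 27025 promoters of this length. CCAAT, the box bound by NF-Y, was found in 72.5% of mitosis and 65.5% of replication promoters and in 38.9% of genes tested. An E2F-type motif (TTTGGCGC, TTTCCCGC, TTTCGCGC or TTTGCCGC) was found in 9.80% of mitosis and 44.8% of replication promoters and in 4.14% of genes tested. Both strands were searched and matches of different motifs could overlap, although TTCGAA reads the same on both strands and was counted once per promoter. A match is a description of letters and shows no binding.

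Regulators of cell cycle entry were mixed. Of 22 G1 cyclins and E2F factors tested, 15 were higher and 1 lower. The transcription factor Foxm1, which drives mitotic genes, had 18.3 and 13.9 CPM in cycling cells and 0.60 and 0.82 CPM in matched cells (4.38 ± 0.25). Ccne2, a cyclin of S phase entry, had 21.9 and 19.0 CPM in cycling cells and 2.63 and 1.16 CPM in matched cells (3.55 ± 0.21). The D cyclins, which respond to growth factors, did not pass: Ccnd1 had 74.8 and 96.3 CPM in cycling cells and 92.7 and 92.3 CPM in matched cells (-0.10 ± 0.08). The 1 gene lower was Myc, at 8.11 and 18.2 CPM in cycling cells and 9.22 and 24.8 CPM in matched cells (-0.38 ± 0.13, adjusted p = 0.037). The inhibitors of the cycle split, with 6 of 26 higher and 10 lower, where 12.6% of all genes were higher and 12.8% lower. Cdkn2c, which encodes the CDK inhibitor p18, was higher, at 10.1 and 18.3 CPM in cycling cells and 1.56 and 3.41 CPM in matched cells (2.49 ± 0.19). Cdkn3, a phosphatase gene of mitosis, was also higher (3.98 ± 0.14). Among the lower ones, chosen here after their values were seen, were Cdkn1a, which encodes p21, at 449 and 557 CPM in cycling cells against 575 and 721 CPM in matched cells (-0.37 ± 0.04), and the antiproliferative gene Btg1, at 456 and 613 CPM against 738 and 908 CPM (-0.63 ± 0.05).

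Genes of the hypoxia response were lower in cycling cells. Of 20 genes, 14 were lower and none higher (median log2 change -0.38), and 13 of 23 glycolysis and lactate genes were lower and none higher (-0.19), where 12.8% of all genes were called lower. Vegfa, the vascular growth factor, had 115 and 193 CPM in cycling cells, against 233 and 364 CPM in matched cells (-0.96 ± 0.06, adjusted p = 1.3e-10). Ndrg1, a stress gene induced by hypoxia, had 50.9 and 42.0 CPM in cycling cells and 89.9 and 81.5 CPM in matched cells (-0.89 ± 0.08). Hmox1, which encodes heme oxygenase, had 205 and 234 CPM in cycling cells and 415 and 411 CPM in matched cells (-0.91 ± 0.06). For all 3 genes both cycling sums lay below both matched sums. Slc2a1, the glucose transporter, was lower by less, at 96.3 and 144 CPM in cycling cells and 121 and 170 CPM in matched cells (-0.28 ± 0.06, adjusted p = 0.0022). Without the library block 1 of the hypoxia genes and none of the glycolysis genes passed, and DESeq2 called 11 and 2 lower. With cells matched on cluster as well, 13 hypoxia genes were lower and 1 higher (median -0.41).

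Macrophage effector genes were lower as well. Of 12 macrophage markers 10 were lower and none higher, where 12.8% of all genes were lower, of 8 monocyte markers 6 were lower and none higher, and of 9 microglia markers 1 was lower and none higher. Their summed level was 19054.6 and 19406.1 CPM in cycling cells against 26292.7 and 26757.5 CPM in matched cells for the macrophage list, and 781 and 988 CPM against 792 and 894 CPM for the microglia list. Phagocyte-like cells were 32.7% and 33.9% of the cycling set and 47.7% and 46.3% of the matched set, and within the phagocyte-like cells alone 5 of 12 macrophage markers were lower and none higher. Apoe, a lipid carrier, had 9194 and 10090.4 CPM in cycling cells, against 14970.0 and 16168 CPM in matched cells (-0.69 ± 0.02). Arg1 had 2092 and 2538 CPM in cycling cells and 3272 and 3529 CPM in matched cells (-0.56 ± 0.04, adjusted p = 1.7e-09). Both genes were lower in both cycling sums than in either matched sum.

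Of the lineage genes, C1qa differed by little (-0.15 ± 0.04, adjusted p = 0.0029), and its sign turned when the Lepr and Csta2 clusters were left out (0.21). Ly6c2 had 57.0 and 39.7 CPM in cycling cells and 82.5 and 75 CPM in matched cells (-0.74 ± 0.09). P2ry12 did not pass, with 36.8 and 58.3 CPM in cycling cells and 42.5 and 52.9 CPM in matched cells (adjusted p = 0.98). Flt3 had 7.22 and 8.18 CPM in cycling cells and 15.4 and 11.5 CPM in matched cells (-0.75 ± 0.16). Cd3e had 20.7 and 5.28 CPM in cycling cells and 14.1 and 3.96 CPM in matched cells (0.50 ± 0.16, adjusted p = 0.025).

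Chemokine genes were mostly lower, 15 of 21, with 4 higher, where 12.8% of all genes were lower and 12.6% higher. Ccl24, a chemoattractant of eosinophils, had 83.5 and 30.7 CPM in cycling cells and 247 and 137 CPM in matched cells (-1.85 ± 0.10). Cxcl3, which attracts neutrophils, had 44.5 and 234 CPM in cycling cells and 136 and 553 CPM in matched cells (-1.38 ± 0.07), with a larger gap between libraries than between the sets. Pf4, a chemokine of platelets and macrophages, had 811 and 634 CPM in cycling cells and 1530.4 and 1761 CPM in matched cells (-1.20 ± 0.08). Of immediate early and heat shock genes 16 of 20 were lower and 1 higher, of lipid and disease-associated phagocyte genes 14 of 20 lower and 1 higher, and of immunosuppression genes 12 of 16 lower and none higher. Cd274, which encodes PD-L1, had 91.0 and 87.2 CPM in cycling cells and 132 and 131 CPM in matched cells (-0.56 ± 0.06). Without the library block no gene of the chemokine, phagocyte or immunosuppression lists passed.

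**Figure D4:**
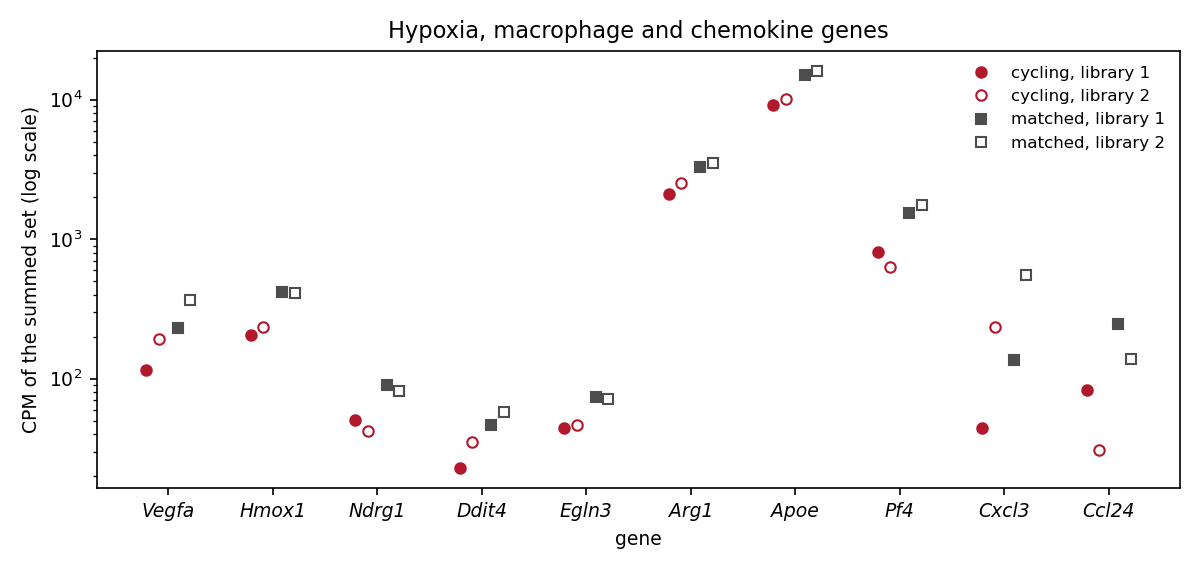
Level in CPM (log scale) of genes of the hypoxia response, of macrophages and of chemokines in the summed cycling set (circles) and matched set (squares) of library 1 (filled) and library 2 (open). In each library the cycling value lies below the matched value for all 10 genes shown; Vegfa is at 115 and 193 CPM in cycling cells, against 233 and 364 CPM in matched cells.

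Genes of growth and energy supply changed by small amounts. Of 22 ribosome biogenesis and translation genes 9 were higher and none lower (median 0.19), with Nop58, a nucleolar protein gene, at 108 and 128 CPM in cycling cells and 64.8 and 85.6 CPM in matched cells (0.64 ± 0.07). Of 22 oxidative phosphorylation genes 9 were higher and none lower (0.16), and of 20 ribosomal protein genes 7 were lower and none higher (-0.06). Of 24 growth factor receptors and nutrient transporters 13 were lower and 4 higher, where 12.8% of all genes were lower and 12.6% higher. Il2ra, the high-affinity interleukin-2 receptor chain, was among the higher ones, at 30.9 and 8.44 CPM in cycling cells and 14.5 and 5.05 CPM in matched cells (0.95 ± 0.14), and Csf1r, the receptor that keeps macrophages alive, among the lower ones (-0.29 ± 0.06).

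Several lists changed with the make-up of the sets. Over all genes, 12.6% were higher and 12.8% lower, and with cells matched on cluster 1540 of 13285 genes were higher and 1502 lower. Of 22 interferon-stimulated genes 16 were lower and 1 higher, but with cells matched on cluster 2 were lower and 1 higher, and the median log2 change was -0.01, against -0.49. Rsad2, which encodes viperin, had 20.8 and 16.4 CPM in cycling cells and 37.8 and 62.9 CPM in matched cells (-1.50 ± 0.16). A monocyte-like cluster led by Cxcl10, Rsad2 and Ifit1 held 3 members of 348 cells and 7 of 233. Of MHC class II and costimulation genes 11 of 12 were lower, and 7 of 12 with cells matched on cluster. Of T cell effector and checkpoint genes 11 of 21 were higher and 3 lower, and 3 of 21 higher and 3 lower with cells matched on cluster. Markers of T cells moved with that list, summing to 183 and 56.7 CPM in cycling cells and 120 and 30.5 CPM in matched cells, and their part in it was not tested beyond these values.

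The phagocyte-like cells were also compared alone, with cells matched on depth within library and cluster (149 and 211 cells per set). Depth was close but not equal, with medians of 19443 and 23515 UMIs in cycling and 18291 and 22647 UMIs in matched cells. The clusters that held the cycling set differed between the libraries: in library 1 a macrophage-like cluster led by Mmp9, Pf4 and Cxcl9 held 79 of the 149 cells and microglia-like cells 38, and in library 2 that cluster held 0 of the 211 cells, microglia-like cells 84 and the cluster led by Vcam1 68. Of 11299 genes 984 (8.71%) were higher and 817 (7.23%) lower. DESeq2 called 292 higher and 89 lower, and the fit without the block 264 and 4. All 40 replication genes and 59 of 60 mitosis genes were higher (medians 1.69 and 4.58). Of the hypoxia list 14 of 20 and of glycolysis 13 of 23 were again lower and none higher (-0.37 and -0.30). DESeq2 called 4 and 2 of them. Ndrg1 had 30.7 and 15.8 CPM in cycling phagocyte-like cells, against 46.5 and 48.2 CPM in matched ones (-1.14 ± 0.15). Vegfa had 122 and 174 CPM in cycling and 231 and 301 CPM in matched phagocyte-like cells (-0.85 ± 0.09), and Arg1 1757 and 2103 CPM in cycling and 2939.5 and 2985 CPM in matched ones (-0.62 ± 0.09). Of 22 interferon genes 2 were higher and 1 lower (median 0.03), and of MHC class II genes 1 of 12 was lower (median -0.10). With a second random draw of matched cells 7 of the 12 MHC class II genes were lower (median -0.21), and 3 interferon genes were lower and 0 higher. C1qa (-0.01), Ly6c2 (0.10) and P2ry12 (-0.01) did not pass the test in phagocyte-like cells.

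In the Lepr and Csta2 clusters (141 and 195 cells per set), 1070 of 10956 genes (9.77%) were higher and 1002 (9.15%) lower, and DESeq2 called 362 higher and 139 lower. The fit without the block called 270 and 8. Mitosis genes were higher in 59 of 60 cases (median 4.66). The hypoxia list had 14 of 19 genes lower and none higher (-0.55), with Vegfa at 100 and 179 CPM in cycling cells and 186 and 350 CPM in matched cells (-0.94 ± 0.09). MHC class II genes were lower for 7 of 10. H2-Eb1, a class II chain, had 47.9 and 56.8 CPM in cycling cells and 124 and 89.3 CPM in matched cells (-0.96 ± 0.12). Ly6c2 had 24.9 and 11.7 CPM in cycling cells and 51.2 and 32.8 CPM in matched cells (-1.26 ± 0.17), and Pf4 271 and 157 CPM in cycling cells and 687 and 398 CPM in matched cells (-1.34 ± 0.08). DESeq2 called 5 of 19 hypoxia and 4 of 10 MHC class II genes lower here, and the fit without the block called 0 of each.

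**Figure D5:**
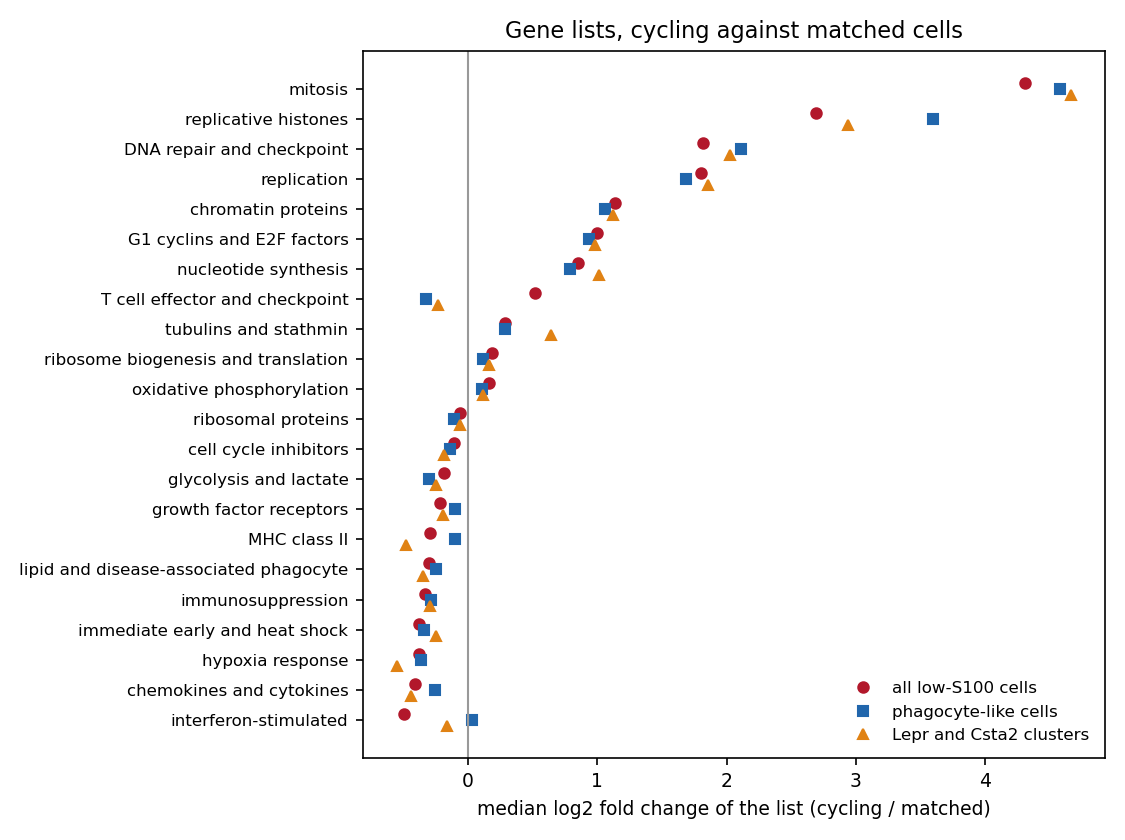
Median log2 fold change (cycling over matched) of each gene list, for all low-S100 cells (circles), phagocyte-like cells (squares) and the Lepr and Csta2 clusters (triangles). Mitosis lies highest (4.31, 4.58 and 4.66), and hypoxia response is below 0 in all 3 (-0.38, -0.37 and -0.55), while interferon-stimulated genes are at -0.49, 0.03 and -0.16.

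T or NK cell-like cells allowed a smaller comparison (47 and 21 cells per set). Median depth was 16466 and 19779 UMIs in cycling and 13574 and 18111 UMIs in matched cells. With simulated counts of these libraries the test found 22% of genes changed 2-fold and 82% of those changed 4-fold. Of 7495 genes 102 (1.36%) were higher and 6 (0.0801%) lower, 1.44% in either direction, and 45 of 52 mitosis genes were among the higher ones (median 4.44). Stmn1 had 659 and 423 CPM in cycling and 55.3 and 66.5 CPM in matched T or NK cell-like cells (3.17 ± 0.30). By edgeR and by DESeq2, 0 of 16 hypoxia, 0 of 21 glycolysis and 0 of 21 T cell effector genes passed, with 3, 2 and 6 at an unadjusted p under 0.05 by edgeR. Cd3e had 190 and 126 CPM in cycling cells and 122 and 166 CPM in matched cells (0.17 ± 0.29). Macrophage genes were present in these sums, with Pf4 at 619 and 675 CPM in cycling and 2010.1 and 1647 CPM in matched cells. Without the cluster whose cells carried both T cell and macrophage markers, which held 38 and 20 of the members, 1839 genes could be tested by edgeR and 0 passed (146 had an unadjusted p under 0.05), and DESeq2 on all T or NK cell-like cells called 32 higher and 5 lower. The edgeR fit without that cluster held 15 and 7 cells per set, with medians of 8322 and 10228 UMIs in cycling and 7136 and 5499 UMIs in matched cells. The difference between the cycling effect of the phagocyte-like class and that of the T or NK cell-like class passed for 2 of 10710 genes (0.0187%), Ccl24 and Cxcl13.

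The sorted neutrophil libraries, which the rule did not use, held few such cells: 21 of 658 low-S100 cells (3.19%) in sorted tumor 1 and 25 of 697 (3.59%) in sorted tumor 2, and 1 of 86 and 0 of 78 in sorted blood 1 and 2 (0 of 78 allows a share of up to 3.85%). In sorted tumor, cycling against matched cells (18 and 25 per set) gave 208 of 7033 genes higher (2.96%) and 115 lower (1.64%), 4.59% in either direction. With simulated counts of these sets the test found 27% of genes changed 2-fold and 87% of those changed 4-fold. Of mitosis genes 50 of 53 were higher (median 4.63), and Birc5, which encodes survivin, had 54 and 108 UMIs in cycling cells and 0 in both matched sums. Of 1039 genes that were higher in the CD45+ comparison and tested here, 937 (90.2%) had a log2 change above 0, and of 1447 lower ones 281 (19.4%), against 49.9% of all genes. The same UMIs of Mki67 and Top2a chose the cells in both comparisons. Shared direction of the cycle programme therefore describes that choice and is not independent support. Apoe had 13754 and 11394 CPM in cycling and 26459 and 33185 CPM in matched cells (-1.24 ± 0.11), and Arg1 1551 and 1116 CPM in cycling and 2669 and 2003 CPM in matched cells (-0.81 ± 0.15). Of the hypoxia list 0 of 16 genes passed there by edgeR and by DESeq2 (2 had an unadjusted p under 0.05 by edgeR, median log2 change -0.18), and Vegfa was at -0.04. MHC class II genes differed in the other direction, 4 higher and 1 lower of 9, but 3 cells held 99.4% of the H2-Aa UMIs of the cycling set. With barcodes shared between libraries left out, 31 of 4689 genes were higher and 12 lower, but sorted tumor 2 then held 7 cells per set that were no longer matched in depth (median 11736 UMIs in cycling and 2787 UMIs in matched cells). In that fit 601 of 666 genes higher in the CD45+ comparison (90.2%) and 343 of 1195 lower ones (28.7%) had a log2 change above 0, against 53.7% of all genes.

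Immunoglobulin genes stood out among the genes outside the cycle lists. Igkc, the kappa light chain, had 479 and 321 CPM in cycling cells and 13.3 and 0.89 CPM in matched cells (6.13 ± 0.25), and Ighg2c, a heavy chain, 74.9 and 101 CPM in cycling cells and 0.84 and 0.55 CPM in matched cells (7.102 ± 0.172). These values rest on very few cells: 3 cells held 82.6% of the Igkc and 99.2% of the Ighg2c UMIs of the cycling set, and the J chain gene Jchain was seen in 4 cells. Without T, NK, B and plasma cell-like clusters the log2 change was -0.05 for Igkc and -0.69 for Ighg2c. The other leading genes outside the lists were cycle genes by function, among them Pbk, a mitotic kinase, Esco2, an acetyltransferase of cohesin, Aspm, a spindle pole protein, and Shcbp1, with log2 changes of 7.01, 6.14, 5.82 and 5.90.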

How the data were processed

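The authors deposited unnormalized UMI counts for the cells of 6 libraries; the submitters' processing notes name Cell Ranger 7.1.0 and the build mm10. The members, classes and gene lists were chosen with earlier results of these data known. Cells were kept from 200 detected genes and up to 10% mitochondrial UMIs, and low-S100 cells had under 0.5% of UMIs from S100a8 and S100a9. Matched cells were drawn within a library from 20 bins of the members' total UMIs (random seed 1). Smaller sets used fewer bins, with about 5 members or more in each, so that clusters with few members were hardly matched on depth. Cells were clustered with Leiden at resolution 1 (scanpy 1.11.5, leidenalg 0.10.2) without the genes of 8 cycle lists and named by marker lists. No doublets were removed in the main comparison. Scrublet's automatic threshold marked 0 cells in each of the 4 tumor libraries and so did not work, and removal of the highest scores (0.8% per 1000 cells) was an alternative. It took 10.9% of members in both CD45+ libraries, and 6.41% and 5.28% of cells with 0 UMIs. Counts summed per library and set were tested with edgeR 4.0.16 (R 4.3.3; TMM, filterByExpr, quasi-likelihood test, library as a block, Benjamini-Hochberg adjustment over all genes tested, threshold 0.05), with CPM after TMM scaling, and this count test was tested on simulated data in each of the 5 comparisons. Sets of one library are paired by origin, since both are cells of that library. DESeq2 1.42.0 was an alternative. Mki67, Top2a, S100a8 and S100a9 chose the cells and were not tested. The sums of marker lists are CPM of all UMIs of the set. Named were the lineage genes, up to 5 genes of each list with the largest change past the threshold, and the 15 highest and 15 lowest changes past it with at least 20 CPM in the higher set and the same direction in both libraries, with the 15 highest of these outside the cycle lists. Other genes named were chosen after their values were seen: Pttg1, Ccnd1, Myc, Cdkn1a, Btg1, Csf1r, the genes with printed promoters and list members set beside another class. Gene positions are from GENCODE vM21 on GRCm38, the assembly that mm10 names.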

Additional observations from a re-analysis of the deposited data

Results flagged for a closer look

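The effect of cycling differed between the phagocyte-like class and the T or NK cell-like class for 2 genes by edgeR's test of the interaction. Most cells of the T or NK cell-like sets lay in the cluster that also carried macrophage markers. Without that cluster 15 and 7 cells per set were left, against 47 and 21 with it. The part of that cluster in the differences was not tested. For Ccl24 the difference of the log2 changes was 3.57 (adjusted p = 0.0021): Ccl24 had 176 and 107 CPM in cycling and 252 and 185 CPM in matched phagocyte-like cells (log2 change -0.66), and 9 and 3 UMIs in cycling against 160 and 35 UMIs in matched cells of the T or NK cell-like class (-4.14), where 5 cycling and 10 matched cells carried them. For Cxcl13, a B cell attracting chemokine, it was -9.13 (adjusted p = 0.0049), with 18 and 2 UMIs in 5 cycling phagocyte-like cells against 82 and 226 UMIs in 14 matched ones. In the T or NK cell-like class Cxcl13 had 82 and 1 UMIs in 3 cycling cells against 2 and 0 UMIs in 2 matched cells, so this side rests on the 2 cells of library 1 that held the 82 UMIs. In the phagocyte-like sets 3 cells held 90.0% of the cycling and 89.0% of the matched UMIs.

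Outside the low-S100 cells, cells with at least 3 UMIs of Mki67 and Top2a also occurred. The CD45+ tumor libraries held 26 of 1607 such high-S100 cells (1.62%), the sorted tumor libraries 33 of 9367 (0.352%) and the sorted blood libraries 11 of 8261 (0.133%), each above the 0.187%, 0.0320% and 0.0363% that a count of 0 would allow. Their median depth was 20277 UMIs in CD45+ tumor, 6171 in sorted tumor and 4703 in sorted blood, against 2294, 3927 and 4094 UMIs for all high-S100 cells of these groups. S100a8 and S100a9 took a median of 0.73% of their UMIs in CD45+ tumor, 2.13% in sorted tumor and 16.1% in sorted blood. The limit for a count of 0 was also the rule by which these groups were flagged. Free RNA or droplets with several cells as a source of such cells was not tested.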

How the results depend on the processing

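In all low-S100 cells, 3404 genes passed. Without a filter on low counts 1688 did, with no replicate block 295, by DESeq2 1198, and against all cells with 0 UMIs, not matched on depth, 6372. Of the phagocyte-like class 1801 passed, with no replicate block 268 and by DESeq2 381. Of the Lepr and Csta2 clusters 2072 passed, with no replicate block 278 and by DESeq2 501. Of the T or NK cell-like class 108 passed, by DESeq2 37, and without the cluster that also carried macrophage markers 0. That last fit had fewer genes and cells and unequal depth. In sorted tumor 323 passed, with DESeq2 size factors 207, with no replicate block 144, by DESeq2 34, and without barcodes found in another library 43, with fewer cells and depth no longer matched. Other causes were not tested. With 1 library left no residual degree of freedom remains, so no count of calls could be had. The share of members was 8.65% and 12.7% at a threshold of 2 UMIs and 4.27% and 5.87% at 5 UMIs, and changed within its interval under other S100 limits or doublet removal. Phagocyte-like cells held 20.8% of members at resolution 0.5 and 29.3% at resolution 2, and the Lepr and Csta2 clusters 56.7% at resolution 0.5. The shares of cells with a lineage gene depended on depth. With cells thinned to 1000 UMIs or not thinned, 30 of these shares moved beyond the spread between the libraries and 2 did not.

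Directions turned as follows, as log2 changes in all low-S100 cells. Removal of the highest scrublet scores gave C1qa 0.0093, Igkc -0.29, Cd79a -0.12 and Ighg2c -0.41. Leaving out barcodes found in another library gave C1qa 0.015. Against unmatched cells they were Il2ra -0.23, C1qa 0.29, Rplp0 0.11, Rps19 0.11, Cd79a -1.88, Rpl18 0.072, Ccl17 -0.36, Prf1 -0.10, Rpl23 0.098, Il2rb -0.38 and Rps14 0.017. Matched on cluster, Cd40 was 0.17, Ifi44 0.15 and Ifit1 0.047. Without T, NK, B and plasma cell-like clusters Igkc was -0.048 and Ighg2c -0.69, and without the Lepr and Csta2 clusters C1qa was 0.21. In phagocyte-like cells, leaving out 1 library gave Hmox1 -0.61 to 0.20 and Cd274 -0.57 to 0.12, and a second draw of matched cells gave Rsad2 -0.53. In the Lepr and Csta2 clusters, members with at least 5 UMIs gave Dach1 0.16. Over the named genes in all low-S100 cells, phagocyte-like cells and the Lepr and Csta2 clusters, 3465 values of tested alternatives kept direction and call, 475 lost the call, 37 gained it and 24 reversed. With 1 library left, without a test, 492 values stayed within the spread of both libraries, 328 moved and 2 reversed. That spread was taken from the same single-library values, so the counts that stayed or moved do not measure stability between libraries.

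The limits are the 2 libraries, whose animals are not named, the 1 residual degree of freedom, and the depth that sets which cells reach 3 UMIs. Marker names were rebuilt from clusters, some of which came mostly from 1 library. Sequencing depth limits the rare lineage genes Flt3, Cd3e and Cd79a.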
